A study of Mus musculus with 106 samples.

Results

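Cyclic nucleotide phosphodiesterases hydrolyse the second messengers cAMP and cGMP, and so set how long and how far the signals made by adenylyl and guanylyl cyclases act on protein kinases, ion channels and exchange factors. Neurons express several families, which differ in the nucleotide they cleave and in what activates them. Striatal projection neurons are known for a high level of *Pde10a*, where dopamine and adenosine receptors act through cAMP. The 10 genes described here were given as a list of symbols and found by their Ensembl identifiers among the 55401 mouse genes of the deposited count table, of which 21897 are annotated as protein-coding. By role, 3 of them encode the calcium and calmodulin activated enzymes (*Pde1a*, *Pde1b*, *Pde1c*), 2 encode enzymes that cleave both nucleotides and carry a regulatory domain of the GAF type (*Pde2a*, which cGMP activates, and *Pde10a*), 4 encode cAMP-specific enzymes (*Pde4a*, *Pde4b*, *Pde4d*, *Pde7b*) and 1 encodes a cGMP-specific enzyme (*Pde9a*). All 10 passed the filter on low counts, a mean count over 10, in each of the 9 comparisons of genotypes.

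The libraries came from knock-in mice aged about 9 months that model Huntington's disease (HD): Hdh Q7/Q200 mice, heterozygous for a huntingtin allele with a long CAG repeat on a 129S4 background, and Hdh Q7/Q7 controls, which the study calls littermates. Mice of 3 lines, controls included, were heterozygous for the RiboTag allele, which adds an HA tag to ribosomal protein *Rpl22* in cells with Cre, and for a Cre driver inserted at *Gad2* (GABAergic neurons), at the parvalbumin gene (PV line) or at *Slc17a6* (vGluT2, glutamatergic neurons). The SST line, for somatostatin neurons, is not named in the study's methods. An IP library holds mRNA pulled down with the tagged ribosomes of cells in which Cre has acted, and a total RNA library (input) holds mRNA of the whole homogenate, of either the cerebrum, taken without the olfactory bulb, or the cerebellum. There were 106 libraries from 45 mice, 67 of IP and 39 of total RNA, and each library was from 1 mouse.

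For IP, control and HD libraries numbered 6 and 6 for cerebral Gad2, 6 and 5 for PV, 5 and 4 for SST, 6 and 6 for cerebral vGluT2, 6 and 6 for cerebellar Gad2 and 5 and 6 for cerebellar vGluT2. For cerebral total RNA there were 3 and 3 of each of the Gad2, PV and vGluT2 lines and 4 and 3 of the SST line, and for cerebellar total RNA 3 and 3 of the Gad2 line and 4 and 4 of the vGluT2 line. Per library, the IPs had 23256806 to 107753596 counts of mouse genes (median 35874524) and total RNA had 21905238 to 62160034 (median 35858945). Levels are given as CPM, counts scaled to a common library size, after TMM normalization, which rescales each library so that most genes match between libraries. This was done separately in each fit, so the CPM of a library differ slightly between the levels and the comparisons of genotypes. In each of the HD cerebellar Gad2, PV and cerebral vGluT2 IP groups, 1 library was sequenced again in a second run with longer reads, which held no control library.

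The targeted cell types were checked against their markers in control libraries. *Gad1*, which makes GABA, had 1508 ± 193 CPM (SD, n = 6) in cerebral Gad2 IPs against 316 ± 51.9 CPM (SD, n = 13) in cerebral total RNA. *Pvalb* reached 639 ± 93.7 CPM (SD, n = 6) in PV IPs and *Sst* 1382 ± 302 CPM (SD, n = 5) in SST IPs, against 151 and 239 CPM in cerebral total RNA. *Slc17a6*, at which the vGluT2 driver sits, had 114 ± 38.6 CPM (SD, n = 6) in cerebral vGluT2 IPs, above the 52.2 CPM of cerebral total RNA but near the values of PV (121 CPM) and SST IPs (111 CPM), so that this marker does not set the vGluT2 IPs apart from those groups. *Slc17a7*, the other vesicular glutamate transporter of these neurons, was highest in the cerebral vGluT2 IPs, at 2056 ± 257 CPM (SD, n = 6), beside 1701 ± 392 CPM (SD, n = 13) in cerebral total RNA, with 863 CPM in PV, 818 in SST and 218 in Gad2 IPs. In the cerebellum, the Purkinje cell marker *Pcp2* had 1386 CPM in Gad2 IPs and 18.7 CPM in vGluT2 IPs, and the granule cell marker *Cbln3* 420 and 4528 CPM. In IPs and homogenates alike, fewer cells of a type and less RNA per cell cannot be told apart.

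The first question is where each phosphodiesterase mRNA is found in control mice. *Pde10a* was highest in cerebral Gad2 IPs, the group that also holds the striatal projection neurons, with 299 ± 67.8 CPM (SD, n = 6) and single libraries from 217 to 390. SST IPs followed with 124 ± 18.2 CPM (SD, n = 5) and PV IPs with 104 ± 18.9 CPM (SD, n = 6). Cerebellar vGluT2 IPs had 67.9 ± 31.7 CPM (SD, n = 5), cerebral vGluT2 IPs 43.2 ± 10 CPM (SD, n = 6) and cerebellar Gad2 IPs 38.2 ± 6.71 CPM (SD, n = 6). *Pde10a* thus stood above its next group in the Gad2 IPs by 1.27 on the log2 scale, while the SST and PV IPs, and the lowest pair of groups, did not differ beyond their spread. Neighbours in an order of levels are said to differ where the adjusted p of their contrast was 0.05 or less. Groups further apart in an order can differ where the steps between them do not pass.

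Among the calmodulin-activated enzymes, the 3 genes had unlike maps. *Pde1b*, the form known from striatum, ran from 811 ± 110 CPM (SD, n = 6) in cerebral Gad2 IPs through 311 ± 48.8 (SD, n = 5) in SST, 261 ± 42.2 (SD, n = 6) in PV and 196 ± 17.9 (SD, n = 6) in cerebral vGluT2 IPs to 57.1 ± 5.78 (SD, n = 6) in cerebellar Gad2 and 27.3 ± 10.6 CPM (SD, n = 5) in cerebellar vGluT2 IPs. All neighbours in that order but SST and PV differed. *Pde1a* was a gene of the cerebrum, with 195 ± 37.4 CPM (SD, n = 6) in vGluT2, 127 ± 17.2 (SD, n = 5) in SST, 88.9 ± 15.8 (SD, n = 6) in PV and 53.8 ± 11.1 CPM (SD, n = 6) in Gad2 IPs, against 2.11 ± 1.37 (SD, n = 5) in cerebellar vGluT2 and 0.825 ± 0.384 CPM (SD, n = 6) in cerebellar Gad2 IPs. The step from cerebral Gad2 to cerebellar vGluT2 IPs was 4.66 on the log2 scale. The neighbouring pairs vGluT2 and SST, and SST and PV, did not differ for *Pde1a*. *Pde1c* had a low level in every group, from 25.8 ± 7.61 CPM (SD, n = 5) in cerebellar vGluT2 IPs through 18.2, 18.1, 17.5 and 13.4 CPM in cerebral Gad2, SST, PV and cerebellar Gad2 IPs to 2.90 ± 0.615 CPM (SD, n = 6) in cerebral vGluT2 IPs. Only the last step of that order, 2.20 on the log2 scale, passed the test. Of groups that are not neighbours, the 2 cerebellar ones also differed by it (Gad2 minus vGluT2, −0.94, adjusted p = 0.00357).

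*Pde2a* was a gene of all cerebral groups. It had 457 ± 70.5 CPM (SD, n = 6) in Gad2, 414 ± 56.6 (SD, n = 6) in vGluT2, 370 ± 66.1 (SD, n = 5) in SST and 263 ± 42.1 CPM (SD, n = 6) in PV IPs, then 90.2 ± 17.3 (SD, n = 6) in cerebellar Gad2 and 11 ± 4.23 CPM (SD, n = 5) in cerebellar vGluT2 IPs. The 2 steps among the 3 highest groups did not pass, and each later step did. *Pde9a*, whose enzyme has a high affinity for cGMP, had the opposite regional order. It was highest in cerebellar Gad2 IPs at 117 ± 20.9 CPM (SD, n = 6), followed by cerebellar vGluT2 IPs at 34.6 ± 3.66 CPM (SD, n = 5), PV, cerebral Gad2 and SST IPs at 25.1, 23.5 and 21.3 CPM, and cerebral vGluT2 IPs at 10.7 ± 2.03 CPM (SD, n = 6). The 2 steps among PV, cerebral Gad2 and SST IPs did not pass.

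The cAMP-specific Pde4 genes were spread more evenly. *Pde4a* ran from 177 ± 18.1 CPM (SD, n = 6) in PV IPs to 55.7 ± 5.86 CPM (SD, n = 5) in cerebellar vGluT2 IPs, with SST (143 CPM), cerebral Gad2 (106), cerebral vGluT2 (90.9) and cerebellar Gad2 IPs (79.1) between them, and the steps from SST to cerebral Gad2 and between the cerebellar groups passed the test. *Pde4b* lay between 65.5 and 90.5 CPM in 5 of the 6 IP groups, with 0 of the 4 steps among them past edgeR's test, and at 30.7 ± 6.24 CPM (SD, n = 6) in cerebellar Gad2 IPs. Further apart in that order, PV IPs were below SST (adjusted p = 0.0449) and cerebral vGluT2 IPs (adjusted p = 0.0487) by the same test. *Pde4d* lay between 13.4 and 26.6 CPM in all 6, and 0 of its 5 steps passed edgeR's test. Its lowest group, cerebellar vGluT2 IPs, did differ by that test from cerebellar Gad2 IPs (Gad2 minus vGluT2, 0.99, adjusted p = 0.000724). It also lay below PV (adjusted p = 0.000782), cerebral vGluT2 (adjusted p = 0.00766) and SST IPs (adjusted p = 0.0167). The count table also holds a pseudogene, *Rps3a3*, inside *Pde4d* on the same strand, and how the quantification divided reads between them was not tested. *Pde7b*, the other cAMP-specific gene, followed the order of the striatal enzymes at its top, with 81.3 ± 20.1 CPM (SD, n = 6) in cerebral Gad2 and 36.5 ± 5.81 CPM (SD, n = 5) in SST IPs. It had 29.1 and 27.1 CPM in cerebral vGluT2 and PV IPs, 9.93 ± 1.47 CPM (SD, n = 6) in cerebellar Gad2 and 2.87 ± 1.61 CPM (SD, n = 5) in cerebellar vGluT2 IPs. For *Pde7b* the 2 steps among SST, cerebral vGluT2 and PV IPs did not pass, and the other 3 did. Over the 10 genes, 23 of the 50 neighbouring pairs passed, where 22.1% of the pairs of all genes did.

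**Figure D1:**
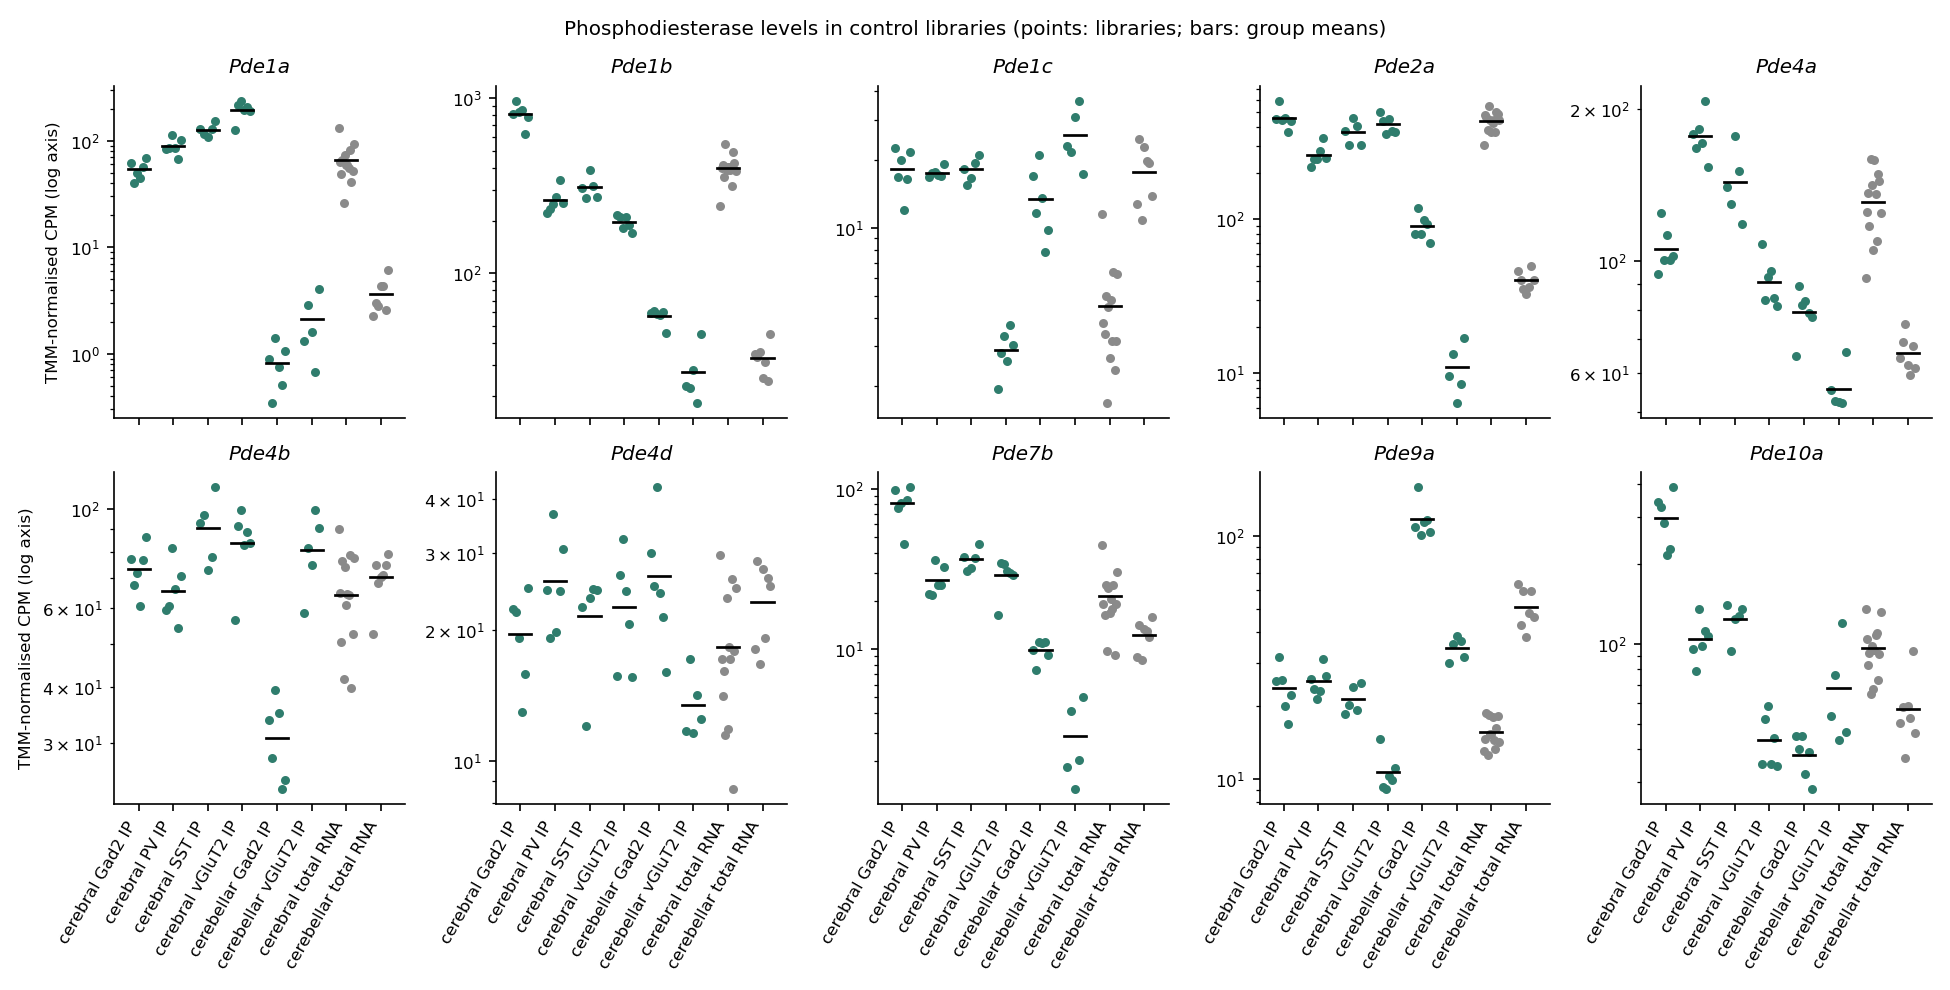
Level of each of the 10 phosphodiesterases in control libraries (TMM-normalized CPM, log axis), in the 6 IP groups (green) and in cerebral and cerebellar total RNA (grey), with a point for each library and a bar at each group mean. *Pde1a*, *Pde1b* and *Pde2a* are lower in both cerebellar IP groups than in the 4 cerebral ones, and *Pde9a* is highest in cerebellar Gad2 IPs.

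The IPs were then compared with total RNA of the same region, which asks in which IPs an mRNA takes a larger share than in the homogenate. The comparison does not separate which cells were pulled down from how much of an mRNA is on ribosomes. Most total RNA libraries came from mice that also gave an IP of that region, and this fit took all libraries as independent. Cerebral Gad2 IPs held more *Pde1c* (log2 difference 2.01, SE 0.22), *Pde7b* (1.93, SE 0.21), *Pde10a* (1.63, SE 0.16), *Pde1b* (1.03, SE 0.13) and *Pde9a* (0.60, SE 0.11) than cerebral total RNA, and less *Pde4a* (−0.31, SE 0.09). Of all 14759 genes tested, 31.9% were higher and 32.1% lower in these IPs at an adjusted p of 0.05 or less, so 5 members higher of 10 stand against 31.9%. The difference of *Pde4a* was 0.12 among HD libraries, with the opposite sign. Over the alternatives the adjusted p ran up to 0.923 for *Pde4a* and 0.184 for *Pde9a*, and the other 4 calls remained.

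PV IPs were higher in 4 members, *Pde1c* (1.95), *Pde9a* (0.69), *Pde4d* (0.51) and *Pde4a* (0.44), against 31.3% of all genes, and lower in *Pde2a* (−0.72) and *Pde1b* (−0.61), against 35.8%. The call of *Pde4d* rested on single libraries: it ended without control replicate 1 or without control replicate 2, with a difference down to 0.35 and an adjusted p of up to 0.136. Among HD libraries the call of *Pde1b* ended (−0.28, adjusted p = 0.101). SST IPs were higher in 5, *Pde1c* (2.0), *Pde1a* (0.96), *Pde7b* (0.78), *Pde4b* (0.49) and *Pde9a* (0.46), where 29.3% of genes were higher, and lower in *Pde1b* (−0.36), where 34.3% were lower. Of these 6 calls 4 ended under an alternative, with adjusted p of up to 0.747 (*Pde1b*), 0.157 (*Pde7b*), 0.0834 (*Pde4b*) and 0.0783 (*Pde9a*). *Pde1c* was higher than in total RNA in each of the cerebral Gad2, PV and SST IPs. Cerebral vGluT2 IPs were higher in *Pde1a* (1.58) and *Pde4b* (0.38), against 34.2% of genes, and lower in 5 members, *Pde10a* (−1.16), *Pde1b* (−1.02), *Pde1c* (−0.63), *Pde9a* (−0.54) and *Pde4a* (−0.52), against 30.3%. Without control replicate 1 the difference of *Pde1c* was −0.54 (adjusted p = 0.0616), and without control replicate 2 that of *Pde4b* was 0.29 (adjusted p = 0.0772). Under other alternatives the adjusted p of these calls ran up to 0.592 (*Pde1c*) and 0.650 (*Pde4b*).

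In the cerebellum, Gad2 IPs were higher in *Pde9a* (1.19, SE 0.13), *Pde2a* (1.17, SE 0.15), *Pde1b* (0.80, SE 0.15) and *Pde4a* (0.27, SE 0.10), 4 members against 27% of genes, and lower in *Pde1a* (−2.15), *Pde4b* (−1.20) and *Pde10a* (−0.57), against 31.3%. *Pde10a* turned to 0.03 among HD libraries, in which total RNA had less of it, and *Pde4a* missed the threshold without control replicate 1 or 4 (adjusted p of up to 0.0601). Over the alternatives the adjusted p ran up to 0.905 (*Pde10a*), 0.803 (*Pde4a*), 0.207 (*Pde1b*) and 0.0782 (*Pde1a*), so 4 of the 7 calls ended under at least 1 of them. In cerebellar vGluT2 IPs, 0 members were higher in edgeR's test against 25.5% of genes, with *Pde1c* at 0.54 (adjusted p = 0.0803). DESeq2 was not run on levels. These IPs were lower in *Pde7b* (−2.09), *Pde2a* (−1.87), *Pde4d* (−0.79), *Pde1a* (−0.77) and *Pde9a* (−0.56), against 30.5% of genes. The call of *Pde1a* ended without control replicate 1, 3 or 4 (adjusted p of up to 0.124), and among HD libraries its difference was 0.12 (adjusted p = 0.721). *Pde4d* (adjusted p = 0.591) and *Pde9a* (adjusted p = 0.0832) also missed the threshold among HD libraries. Without control replicate 5 of the cerebellar vGluT2 IPs, 8 members in place of 5 passed. The share of all genes in that fit is not given here, so this rise cannot be set against it.

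Between genes, levels were compared per kb of the summed exon length of each gene, with the summed level of 19 phosphodiesterase genes tested as the whole. The sum includes *Pde6d*, described below as encoding a prenyl-binding protein, which lowers each share, and not evenly between groups. That sum was 332 ± 33.5 CPM per kb (SD, n = 6) in cerebral Gad2 IPs, 220 in SST, 198 in cerebral vGluT2, 187 in PV, 123 in cerebellar Gad2 and 66.9 ± 3.77 CPM per kb (SD, n = 5) in cerebellar vGluT2 IPs. *Pde1b* made up 45.2 ± 2.52% of it (SD, n = 6) in cerebral Gad2 IPs, where *Pde2a* made up 22.3% and *Pde10a* 7.00%. *Pde10a* thus had a lower level per kb than *Pde1b* and *Pde2a* in the group in which it was highest. In cerebral vGluT2 IPs *Pde2a* led with 33.9 ± 3.44% (SD, n = 6), and *Pde1b* had 18.3% and *Pde1a* 16.5%. In SST IPs *Pde2a* (27.2%) and *Pde1b* (26.1%) came first, and in PV IPs *Pde1b* (25.8%) and *Pde2a* (22.8%), with *Pde4a* at 12.4%. *Pde9a* led in cerebellar Gad2 IPs with 26.7 ± 2.91% (SD, n = 6), and in cerebellar vGluT2 IPs *Pde9a* (14.7%), *Pde4b* (11.4%) and *Pde4a* (10.9%) had the largest shares among the 10 members. The order of close members depends on the length used: per kb of the longest transcript, *Pde4b* (18.9) was ahead of *Pde9a* (16.6) in cerebellar vGluT2 IPs, and *Pde2a* (62.4) just ahead of *Pde1b* (62) in PV IPs.

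Of the other phosphodiesterase genes, *Pde6d*, which encodes a prenyl-binding protein first known as a subunit of the photoreceptor enzyme, had the highest level per kb in cerebral Gad2 (22 CPM per kb), PV (11.5), cerebral vGluT2 (17.6) and cerebellar vGluT2 IPs (18.2). The cAMP-specific *Pde8b* led in SST IPs (12.0 CPM per kb). The cGMP-specific *Pde5a* (20.3 CPM per kb) was just ahead of *Pde6d* (20.1) in cerebellar Gad2 IPs, beside *Pde9a* with 33.0. The cyclase that feeds these enzymes also differed by group: per kb, *Adcy5*, the main adenylyl cyclase of striatal neurons, was first in cerebral Gad2 IPs (85.6 CPM per kb) and the calmodulin-activated *Adcy1* in the other 5 IP groups (31.2 to 135 CPM per kb). Among guanylyl cyclase genes the soluble subunit *Gucy1b1* was first in all 6 groups, from 21.5 CPM per kb in cerebellar vGluT2 to 50.7 in cerebral Gad2 IPs, and among effectors the regulatory subunits of protein kinase A, *Prkar1b* and *Prkar1a*, held both top places or, in cerebellar Gad2 IPs, *Prkar1a* (183 CPM per kb) and the catalytic subunit *Prkaca* (118) did.

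As a description of shape, the mean log2(CPM + 1) of each member over the 8 control groups, 6 of IP and 2 of total RNA, was correlated with that of the other members and with 12250 protein-coding genes that had at least 5 CPM in a group. The groups share mice and regions, so no p is given. Among members, the closest were *Pde1b* and *Pde2a* (r = 0.923), *Pde1b* and *Pde7b* (0.905) and *Pde2a* and *Pde7b* (0.900), and the most unlike were *Pde1a* and *Pde9a* (−0.881), all over n = 8 groups. Outside the family, the genes nearest to *Pde10a* were *Serpina9* (r = 0.965) and *Isoc1* (0.953), and those nearest to *Pde1b* were *Bcr* (0.988) and *Plppr1* (0.987). *Pde7b* was nearest to *Gucy1a1* (0.984), which encodes a subunit of the soluble guanylyl cyclase, and *Sh3kbp1* (0.957). *Pde1a* was nearest to *A930033H14Rik* (0.995) and *Kcnt2* (0.995), *Pde1c* to *Xkr8* (0.939) and *Kctd8* (0.933), and *Pde2a* to *Triqk* (0.991) and *Fscn1* (0.989). *Pde4a* was nearest to *Limk1* (0.984) and *Kcnd1* (0.981), *Pde4b* to *Cplx2* (0.971) and *Lrrtm2* (0.962), *Pde4d* to *Atrnl1* (0.953) and *Plxna4* (0.933), and *Pde9a* to *Strip2* (0.993) and *Zfp973* (0.980). With 8 points and 12250 genes, values near 1 are common.

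The second question is what HD does to these genes in each cell type. In cerebral Gad2 IPs, *Pde10a* had 222, 314 and 394 CPM as the lowest, median and highest of 6 control libraries and 120, 162 and 217 CPM in 6 HD libraries. All HD libraries lay below all controls, by a narrow gap between 217 and 222 CPM. A log2 difference of −0.84 (SE 0.17, adjusted p = 0.174) means that it did not pass edgeR's test over all 14342 genes. DESeq2 called it with an adjusted p of 0.00404, where the adjusted p over the alternatives ran from 0.00404 to 0.192, and without single libraries it ran from 0.139 to 0.605. *Pde10a* was the 1 member whose groups did not overlap, against 0.565% of all genes.

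*Pde7b* had the largest log2 fold change of the 10 in this group, −0.98 (SE 0.39, adjusted p = 0.536), with 46.4, 86.0 and 103 CPM in controls and 11.8, 45.1 and 71.2 CPM in HD. The HD libraries were widely scattered, with 3 between 11.8 and 30.5 CPM and 3 between 59.7 and 71.2 CPM, and the higher ones overlapped the controls. The 3 low libraries, replicates 3, 5 and 6, were also the lowest HD libraries for *Pde1c* (7.81 to 9.18 CPM), *Pde4d* (5.88 to 10.8 CPM) and *Pde4b* (39.9 to 55.3 CPM) and the highest for *Pde4a* (146 to 155 CPM). In length balance, the mean log2(CPM + 1) of genes with long transcripts minus that of genes with short ones, replicates 3 and 5 had 0.0599 and 0.236, where the lowest control had 0.279. The balance of replicate 6 is not given here, and the group medians were 0.364 (HD) and 0.489 (control). With that balance as a covariate the log2 fold change was −0.68 for *Pde7b* (adjusted p = 0.851) and −0.64 for *Pde10a* (adjusted p = 0.0906), and why these 3 libraries differed was not tested. Among the 6 libraries of each genotype, mean and SD of *Pde1c* were 18.6 ± 4.12 CPM (control) and 12.4 ± 4.26 CPM (HD), and those of *Pde1b* 827 ± 110 and 680 ± 125 CPM, with log2 fold changes of −0.58 and −0.28. *Pde4a* was the 1 member of 10 that was higher, with 108 ± 9.99 CPM for control and 130 ± 22.8 CPM for HD libraries (SD, n = 6 each; log2 fold change 0.28). The other 5, *Pde1a*, *Pde2a*, *Pde4b*, *Pde4d* and *Pde9a*, had log2 fold changes between −0.39 and −0.09. In all, 0 of 10 members passed by edgeR, against 0.0279% of all genes tested, 1 passed by DESeq2, and 4 had an unadjusted p under 0.05, against 9.15% of all genes. The median log2 fold change of the 10 was −0.29, and that of all genes −0.01.

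Markers of striatal projection neurons were also lower in these HD IPs. Their sum, with *Ppp1r1b* as the most abundant gene, was 6004 to 7837 CPM in controls and 3770 to 5901 CPM in HD, with 12 of 12 genes lower and 0 called by edgeR. As a percent of that sum, *Pde10a* was 2.83 to 5.79 in controls (median 4.32) and 2.17 to 5.68 in HD (median 3.50), so that the genotypes overlapped. *Pde1b* was 10.6 to 12.8% of the sum in controls (median 11.7) and 12.7 to 15.5% in HD (median 14), and *Pde7b* 0.592 to 1.52% and 0.214 to 1.86%. Relative to the marker sum the median of *Pde1b* was thus higher in HD, where its CPM was lower, though the ranges of the genotypes overlapped. This ratio was not tested. The part of the marker genes in these differences was not tested.

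In PV IPs, *Pde10a* was 84.4, 109 and 145 CPM (lowest, median and highest of 6) in controls, and 62.2, 63.1, 66.3, 72.3 and 85.7 CPM in the 5 HD libraries. The groups overlapped by 1 HD library, at 85.7 CPM, just above the lowest control, and this was the library of the second sequencing run. The log2 fold change was −0.66 (SE 0.13, adjusted p = 0.181), past the threshold by DESeq2 (adjusted p = 0.00300, over the alternatives 0.00300 to 0.363). In control PV IPs *Pde10a* was near its level in cerebral total RNA (104 and 96.4 CPM, log2 difference 0.11, adjusted p = 0.564 by edgeR). Which cells of the PV IPs this difference between genotypes comes from was not tested. *Pde7b* was 23.2 to 38.3 CPM in controls and 15.2 to 26 CPM in HD (log2 fold change −0.45, SE 0.16, adjusted p = 0.963). The other 8 members had log2 fold changes between −0.17 (*Pde1b*) and 0.18 (*Pde9a*), with genotypes that overlapped for each of them. By edgeR 0 of 10 passed, against 0.034% of genes, by DESeq2 1 did, *Pde10a*, and 2 had an unadjusted p under 0.05, against 4.28% of genes, and 0 of 10 stood apart between genotypes, against 0.605%. Here the striatal marker sum was 467 to 629 CPM in controls and 367 to 447 CPM in HD, with 11 of 12 genes lower. HD replicate 3 of the PV IPs had the highest sum of Purkinje cell markers, 4788 CPM against at most 2167 CPM in controls, and the adjusted p of *Pde10a* without single PV libraries ran from 0.110 to 0.768. The part of these markers was not tested.

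In SST IPs, *Pde10a* was 102, 137, 143, 155 and 155 CPM in the 5 controls and 63.1, 88.4, 91.2 and 106 CPM in the 4 HD libraries. One control and 1 HD library crossed, at 102 and 106 CPM, and the others kept apart. By their labels, 3 of the 5 control mice belong to another number series (Z) than the 4 HD mice and the other 2 controls (BR), and what the series marks is not known. The log2 fold change was −0.67 (SE 0.18, adjusted p = 0.9996), close to that in PV IPs. As in those, *Pde10a* was not called against cerebral total RNA in control SST IPs, and the cells behind this difference were not tested. *Pde7b* had 33.1 to 51.9 CPM in controls and 18.0 to 38.5 CPM in HD (−0.45, SE 0.21, adjusted p = 0.9996), and the other 8 had log2 fold changes between −0.18 and 0.13. By edgeR 0 of 10 members passed, against 0% of all 14689 genes, by DESeq2 0 members and 2 genes did, and 1 member, *Pde10a*, had an unadjusted p under 0.05, against 1.41% of genes. None stood apart (0 of 10, against 0.647% of genes). The striatal marker sum was 901 to 1170 CPM in controls and 772 to 977 CPM in HD.

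In cerebral vGluT2 IPs, where the level of *Pde10a* was low, controls had 32.5, 37.9 and 54.7 CPM (lowest, median, highest of 6) and HD libraries 25.7, 31.1 and 34.0 CPM. The groups overlapped by 1 HD library, at 34.0 CPM, above the 3 lowest controls. The log2 fold change was −0.44 (SE 0.14, adjusted p = 0.666). *Pde7b* had 15.4, 28.5 and 32.4 CPM in controls and 10.8, 21.5 and 23.2 CPM in HD, with 5 of 6 controls above all HD libraries and control replicate 1 below most of them (−0.48, SE 0.20, adjusted p = 0.677). The other 8 members lay between −0.23 (*Pde1a*) and 0.18 (*Pde1c*). By edgeR 0 of 10 passed, against 0.00697% of genes, 0 by DESeq2, and 2 had an unadjusted p under 0.05, against 7.28% of genes, and 0 of 10 stood apart, against 0.69%. The striatal marker sum was 488 to 639 CPM in controls and 398 to 468 CPM in HD, with 11 of 12 genes lower, and its part was not tested.

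**Figure D2:**
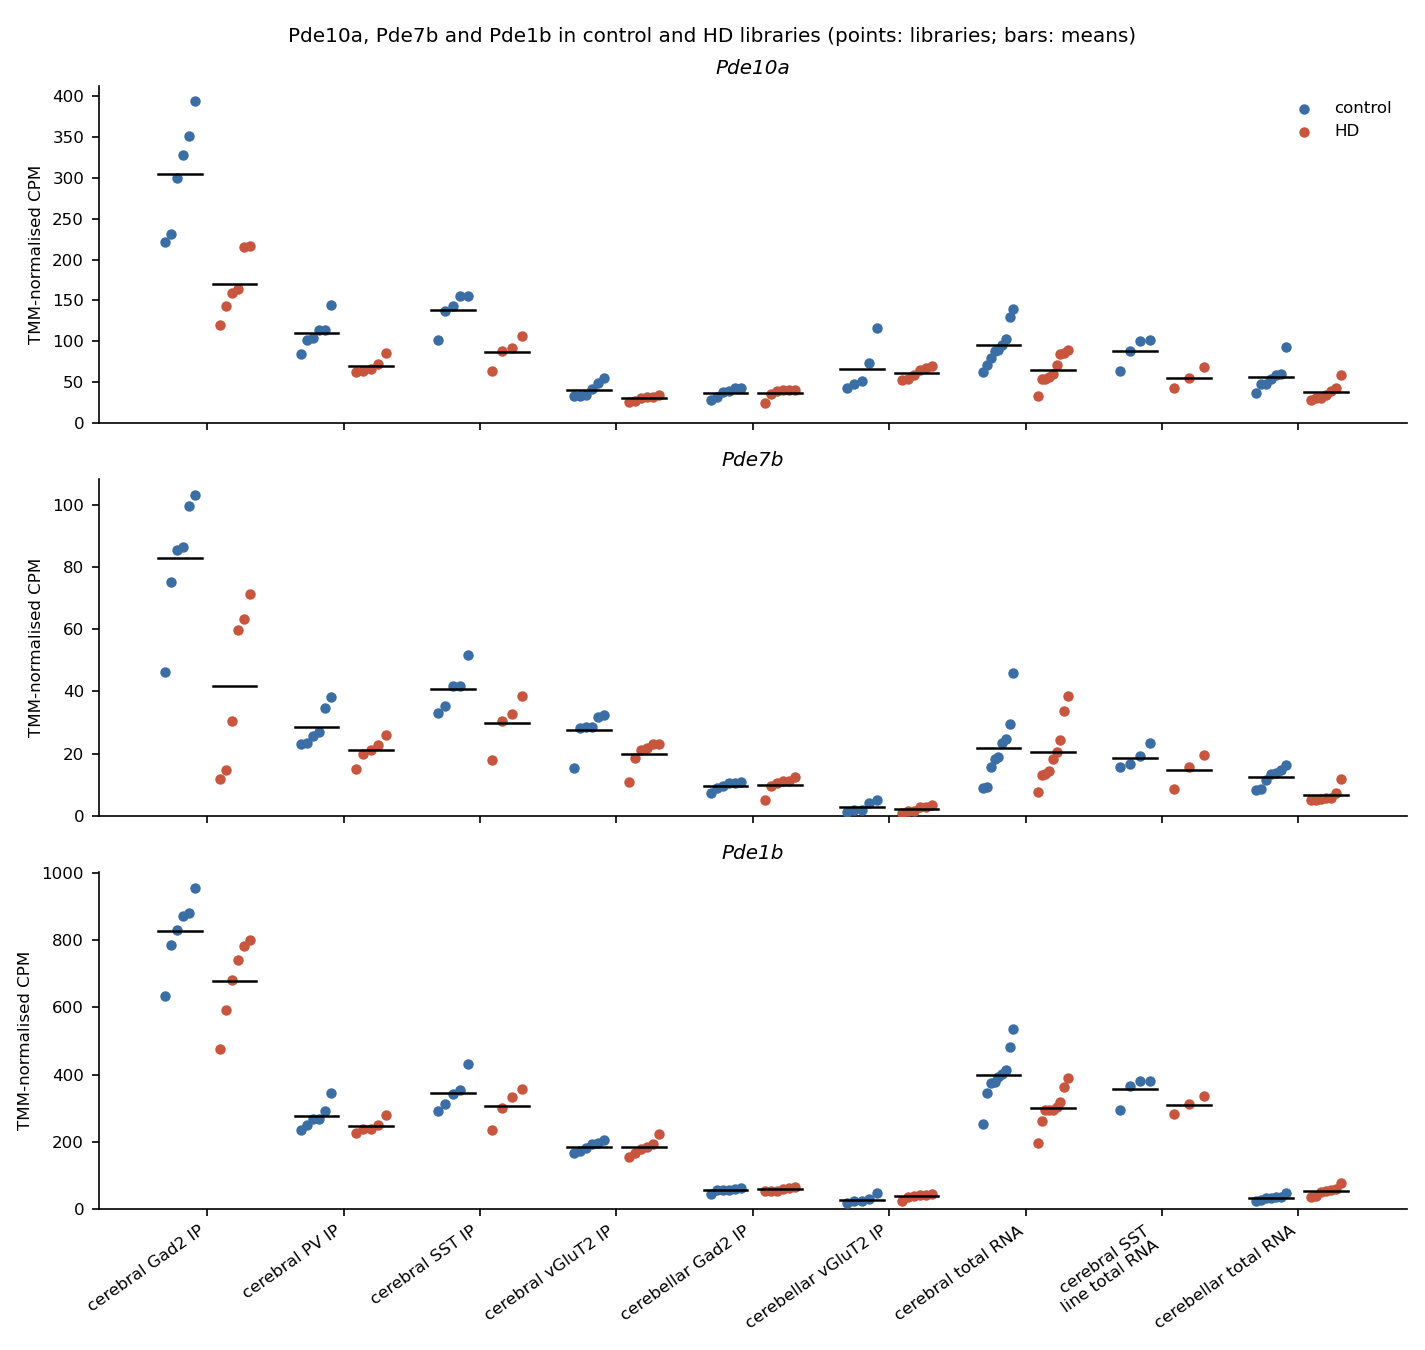
Level of *Pde10a*, *Pde7b* and *Pde1b* (TMM-normalized CPM) in each control (blue) and HD (red) library of the 6 IP groups and the 3 total RNA comparisons, with bars at group means. *Pde10a* is separate between genotypes in cerebral Gad2 IPs, by the gap from 217 to 222 CPM, and overlaps in the other 8 comparisons.

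In cerebellar Gad2 IPs, *Pde10a* was 27.5, 38.8 and 43.2 CPM in 6 controls and 24.3, 39.5 and 40.4 CPM in 6 HD libraries (log2 fold change −0.02, SE 0.15, adjusted p = 0.9999). The genotypes covered the same range. Control and HD means were 9.64 ± 1.35 and 9.99 ± 2.65 CPM for *Pde7b*, and for *Pde9a*, the leading member there, 114 ± 22 and 95.2 ± 14.7 CPM (SD, n = 6 each; log2 fold change −0.26, SE 0.14, adjusted p = 0.9999). Of the 10, 5 were lower and 5 higher, 0 passed by edgeR against 0.0142% of genes, 0 by DESeq2 and 0 at an unadjusted p under 0.05, where 2.30% of genes had one, and 0 stood apart, against 0.277%.

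In cerebellar vGluT2 IPs, *Pde10a* was 42.8, 47.2, 51.7, 73.7 and 116 CPM in the 5 controls and 52.5, 61.9 and 69.5 CPM (lowest, median, highest of 6) in HD (log2 fold change −0.12, SE 0.22, adjusted p = 0.825). Control replicate 4 alone held the value of 116 CPM, and without it the log2 fold change was 0.19. *Pde9a* was 28.9, 32.3, 34.8, 35.5 and 38.2 CPM in controls and 35.7, 41.3 and 45.7 CPM in HD, with 5 of 6 HD libraries above all controls (0.29, SE 0.10, adjusted p = 0.190). *Pde4a* was 50.5, 51.2, 51.5, 53.4 and 67.1 CPM in controls and 55.1, 65.0 and 79.6 CPM in HD (0.29, SE 0.12, adjusted p = 0.259). Here 7 of 10 members were higher and 3, *Pde2a*, *Pde7b* and *Pde10a*, lower, with a median of 0.24 against −0.01 for all genes. By edgeR 0 of 10 passed although 2.11% of genes did, 0 by DESeq2, 2 had an unadjusted p under 0.05, against 15.5% of genes, and 0 stood apart, against 4.13%. Granule cell markers, with *Cbln3* as the most abundant, summed to 7789 to 10008 CPM in controls and 5139 to 7079 CPM in HD, and *Neurod1* (−0.87) and *Cbln3* (−0.80) fell.

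**Figure D3:**
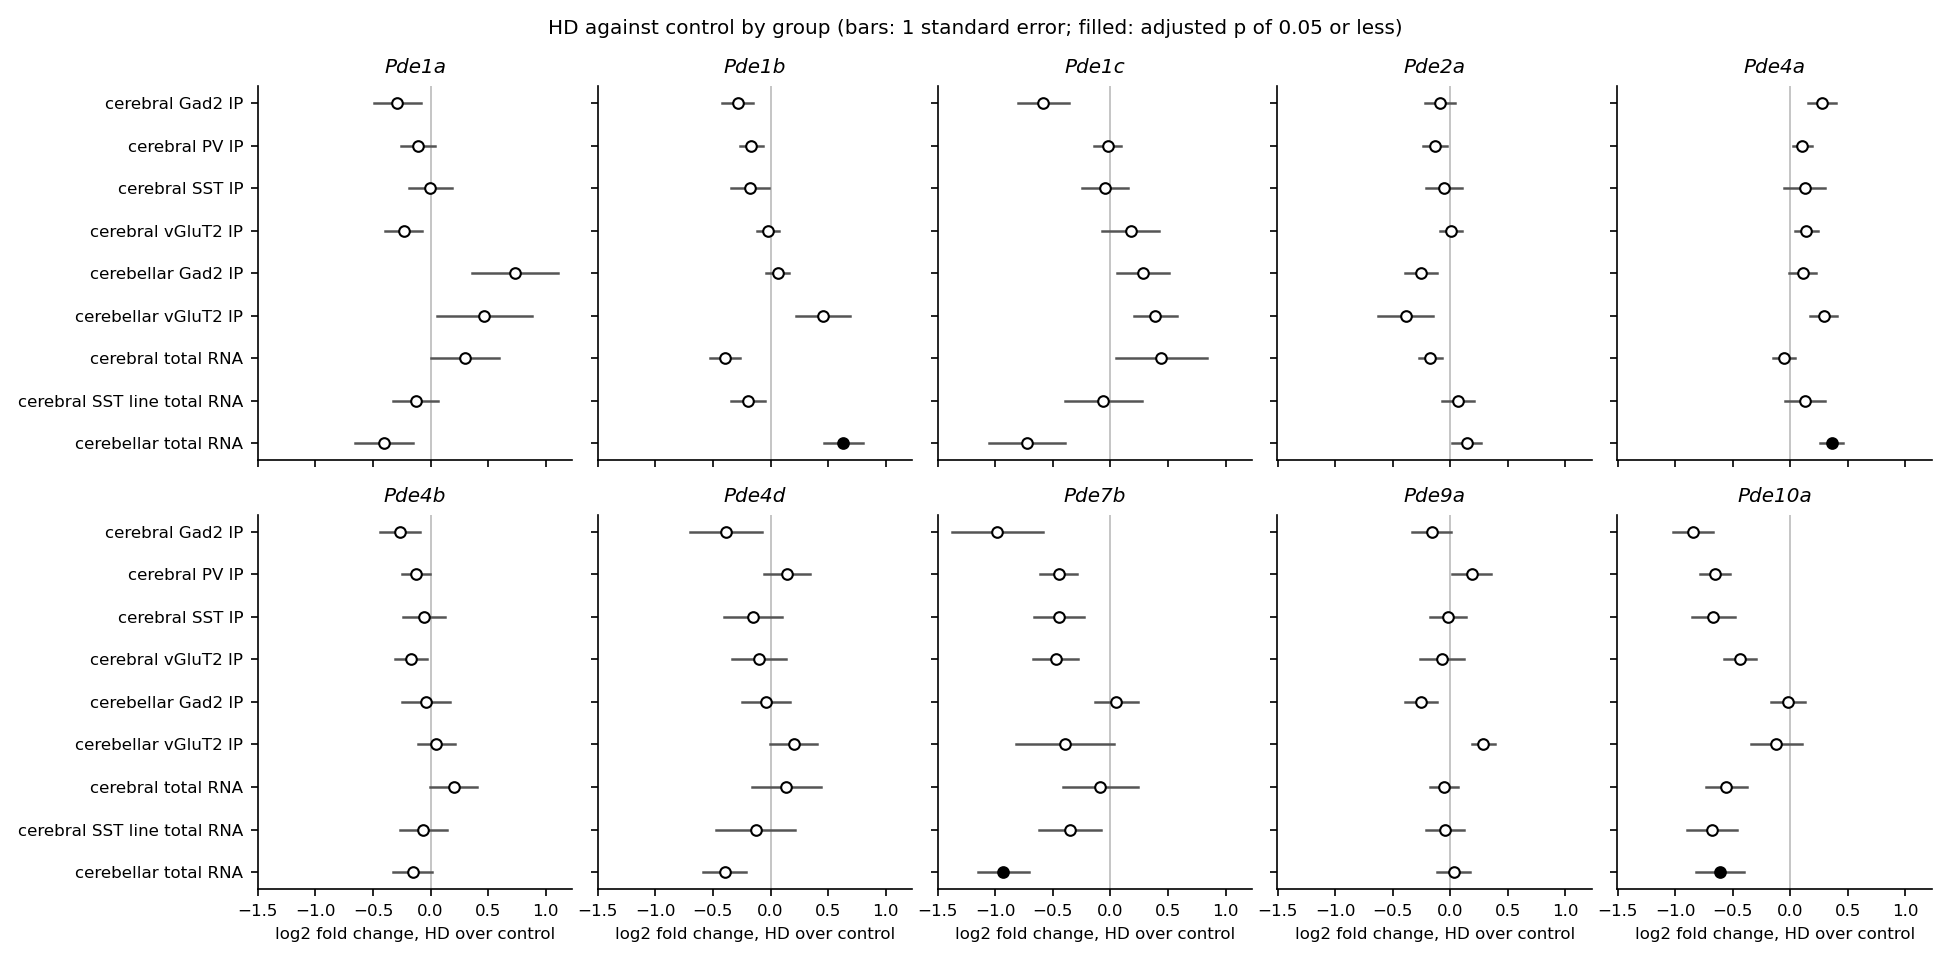
Log2 fold change of HD over control for each phosphodiesterase in the 9 comparisons, with bars of 1 standard error and filled points at an adjusted p of 0.05 or less (edgeR). The 4 filled points are *Pde1b*, *Pde4a*, *Pde7b* and *Pde10a* in cerebellar total RNA, and *Pde10a* lies between −0.84 and −0.44 in the 4 cerebral IP groups.

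Whether these effects differed between cell types was tested with all 67 IPs in one fit. Cerebral and cerebellar IPs of the Gad2 line came from the same mice, and those of the vGluT2 line shared mice. The fit took all libraries as independent, which limits the SE and adjusted p of contrasts between regions. Gene counts with the mouse as a block are given under the processing. The largest difference for *Pde10a* was between cerebellar and cerebral Gad2 IPs, 0.83 (cerebellar minus cerebral, SE 0.24, adjusted p = 0.354). In the same contrast *Pde7b* had 1.06 (SE 0.41), *Pde1a* 1.03 (SE 0.38) and *Pde1c* 0.88 (SE 0.28), with adjusted p from 0.503 to 0.687. By edgeR 0 of 10 members passed it, against 0.0478% of the 14648 genes. Against cerebral Gad2 IPs, 0 members passed in edgeR's contrasts with cerebral vGluT2, PV and SST IPs, where 0%, 0% and 0% of genes did. The largest member difference in these contrasts was that of *Pde1c* (vGluT2 minus Gad2, 0.71, SE 0.29, adjusted p = 0.99997). The smaller values of *Pde10a* in PV, SST and vGluT2 IPs are therefore not shown to differ from that in Gad2 IPs. Between cerebellar and cerebral vGluT2 IPs 0 members passed by edgeR, against 0.594% of genes, with *Pde1b* at 0.44 (SE 0.21, adjusted p = 0.526). Between cerebellar vGluT2 and Gad2 IPs 0 members passed, against 0.492% of genes, with *Pde9a* at 0.44 (SE 0.22, adjusted p = 0.553). DESeq2 was not run on these contrasts.

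Total RNA shows the sum over all cells of the homogenate. In cerebral total RNA of the Gad2, PV and vGluT2 lines, *Pde10a* was 62.8, 89.9 and 140 CPM (lowest, median and highest of 9) in controls and 32.6, 59.5 and 89.7 CPM in 9 HD libraries. The lower controls and upper HD libraries overlapped. With the line as a covariate, the fit put *Pde10a* at −0.55 on the log2 scale (SE 0.18, adjusted p = 0.393), and *Pde1b*, at 252, 392 and 534 CPM in controls and 196, 295 and 390 CPM in HD, had −0.40 (SE 0.13, adjusted p = 0.406). *Pde7b* had 21.6 ± 11.3 CPM in controls and 20.4 ± 10.2 CPM in HD (SD, n = 9 each). By edgeR 0 of 10 members passed, against 0.141% of genes, 0 by DESeq2 and 2, *Pde10a* and *Pde1b*, had an unadjusted p under 0.05, against 6.62% of genes, and 0 stood apart, against 0.0807%.

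Libraries of this group also differed in length balance, from −0.32 to 1.26. With this balance as a covariate, an alternative chosen after the data were seen, *Pde10a* (−0.65, adjusted p = 9.3e-06) and *Pde1b* (−0.33, adjusted p = 0.00230) passed, and with the SST line added *Pde10a* did (−0.59, adjusted p = 0.0493). Over all alternatives the adjusted p of *Pde10a* ran from 9.3e-06 to 0.99998 and that of *Pde1b* from 0.00230 to 0.99998. The striatal marker sum was 1077 to 2224 CPM in controls and 724 to 1494 CPM in HD, with 11 of 12 genes lower, and its part was not tested. In total RNA of the SST line, fitted alone, *Pde10a* was 63.5, 88.6, 101 and 102 CPM in 4 controls and 42.8, 55.1 and 68.3 CPM in 3 HD libraries (−0.68, SE 0.21, adjusted p = 0.9996). All but the lowest control lay above all HD libraries. The controls at 101 and 102 CPM are mice of the Z number series, and the other controls and all HD mice are BR. Of the 10 members 8 were lower, 0 passed by edgeR, against 0% of genes, 0 by DESeq2, 1, *Pde10a*, had an unadjusted p under 0.05, against 2.56% of genes, and 0 stood apart, against 3.99%.

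In cerebellar total RNA, where 24.5% of all genes passed, 4 of 10 members did: *Pde10a* and *Pde7b* fell, and *Pde1b* and *Pde4a* rose. *Pde10a* was 47.6, 53.7, 60.1 and 92.6 CPM in the 4 controls of the vGluT2 line and 28.6, 30.0, 30.5 and 34.0 CPM in its 4 HD libraries, and 36.2, 48.1 and 59 CPM in the 3 controls of the Gad2 line and 39.3, 43.3 and 58.8 CPM in its 3 HD libraries. The genotypes stood apart in the vGluT2 line and covered the same range in the Gad2 line. With the line as a covariate the log2 fold change was −0.61 (SE 0.21, adjusted p = 0.0476).

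*Pde7b* was 11.6, 13.3, 13.7 and 16.4 CPM in controls and 5.00, 5.15, 5.78 and 5.82 CPM in HD libraries of the vGluT2 line, and 8.38, 8.58 and 14.6 CPM in controls and 5.33, 7.22 and 11.7 CPM in HD libraries of the Gad2 line (−0.93, SE 0.22, adjusted p = 0.0279). In the vGluT2 line all HD libraries were at less than 6 CPM, as was the HD library of the Gad2 line at 5.33 CPM. A difference between the lines was not tested. *Pde1b* was 23.9, 26, 32.3 and 46.5 CPM in controls and 51.9, 56.2, 58.5 and 75.1 CPM in HD libraries of the vGluT2 line, and 32.9, 34.3 and 34.7 CPM in controls and 35.2, 38.5 and 48.6 CPM in HD libraries of the Gad2 line (0.63, SE 0.17, adjusted p = 0.0306). Every HD library was above every control of its own line. *Pde4a* was 60.9, 63.4, 63.8 and 66.6 CPM in controls and 87.2, 90.4, 92.8 and 99.5 CPM in HD libraries of the vGluT2 line, and 61.3, 70.9 and 73.2 CPM in controls and 69.8, 73.3 and 80.3 CPM in HD libraries of the Gad2 line (0.36, SE 0.10, adjusted p = 0.0308). Here the Gad2 line overlapped by a single HD library. With both lines together 0 members stood apart, against 1.26% of genes.

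These calls rest on the vGluT2 line, and over the alternatives their adjusted p ran up to 0.9999 from 0.00169 (*Pde10a*), 0.00573 (*Pde1b*), 0.00171 (*Pde4a*) and 0.000168 (*Pde7b*). In that line alone 6 members passed, the 4 above with *Pde1c* (−1.36) and *Pde4d* (−0.63). The count of all genes called there, given under the processing, also rose far above the 3544 called of 14477 in both lines. The members were not tested against that count, so these 6 calls are not read as a trait of the phosphodiesterases. In the Gad2 line alone these 6 had an adjusted p of 0.9999. The log2 fold changes there were −0.03 (*Pde10a*), −0.39 (*Pde7b*), 0.25 (*Pde1b*), 0.11 (*Pde4a*) and, with the opposite sign, 0.12 (*Pde1c*). *Pde4d* had 16.4 to 29.5 CPM in controls and 15.4 to 27.7 CPM in HD libraries of the Gad2 line. The length balance differed in the same way: it was 0.866 to 1.16 in controls and 0.0192 to 0.409 in HD libraries of the vGluT2 line, and 0.527, 0.533 and 1.25 in controls and 0.220, 0.560 and 1.17 in HD libraries of the Gad2 line. With it as a covariate, added after the data were seen, 83 genes in place of 3544 passed, and the members had log2 fold changes of −0.26 (*Pde10a*), −0.35 (*Pde7b*), 0.46 (*Pde1b*) and 0.23 (*Pde4a*) with adjusted p from 0.277 to 0.650, while *Pde1c* (0.14) and *Pde4d* (0.06) changed sign. Without 1 library, Gad2 control replicate 2, Gad2 HD replicate 2, vGluT2 control replicate 1, 2, 3 or 4 or vGluT2 HD replicate 2, 3 or 4, all 4 calls ended, with adjusted p of up to 0.101 (*Pde10a*), 0.0689 (*Pde1b*), 0.0694 (*Pde4a*) and 0.0651 (*Pde7b*). Without vGluT2 HD replicate 1, 2 of the 4 remained, *Pde4a* (adjusted p = 0.0475) and *Pde7b* (adjusted p = 0.0468), and without Gad2 HD replicate 1 the call of *Pde10a* ended (adjusted p = 0.0600). In cerebellar total RNA marker genes of other cells moved too, such as *Itpr1* of Purkinje cells (−0.93) and *Csf1r* of microglia (0.51). What part length balance or cell types had in the members' differences was not tested beyond that covariate. Whether length balance here reflects RNA quality or biology cannot be told from the counts.

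**Figure D4:**
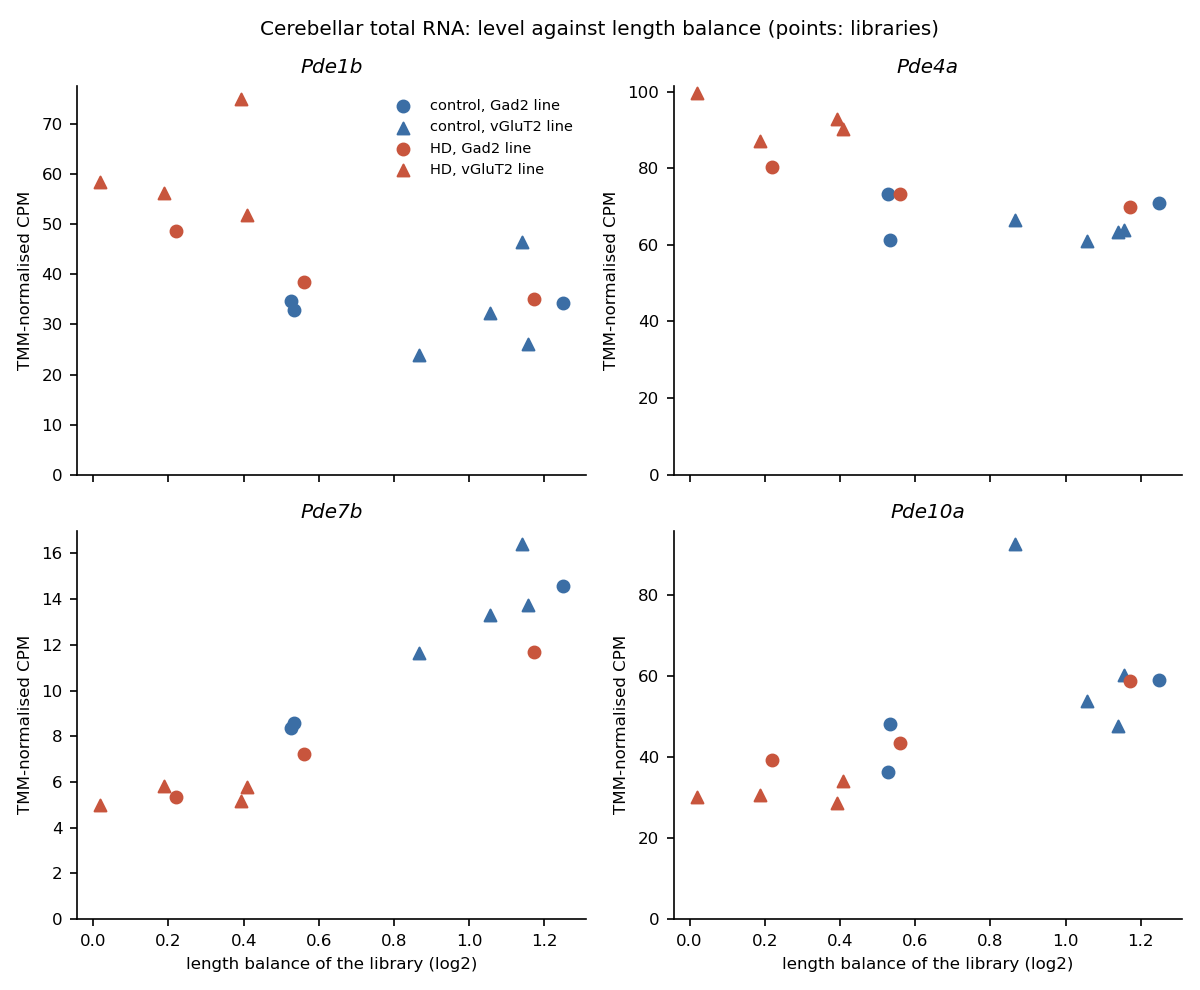
Level of *Pde1b*, *Pde4a*, *Pde7b* and *Pde10a* (TMM-normalized CPM) in each cerebellar total RNA library against its length balance (log2), with control (blue) and HD (red) libraries of the Gad2 line (circles) and the vGluT2 line (triangles). The HD libraries of the vGluT2 line lie at 0.0192 to 0.409 and its controls at 0.866 to 1.16, while the genotypes of the Gad2 line overlap on the horizontal axis.

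The other genes of cyclic nucleotide signalling were read from fixed lists. Among 14 other phosphodiesterase genes, 8 were tested in cerebellar vGluT2 IPs, where 2.11% of all genes passed, and 1 rose, *Pde3a*, whose enzyme cGMP inhibits, from 18.0 ± 3.57 CPM (SD, n = 5) to 44.9 ± 14.6 CPM (SD, n = 6), with no overlap (log2 fold change 1.32, SE 0.22, adjusted p = 0.00703). Alternatives and fits without single libraries were read for the members only, so how far this call depends on them was not tested. In cerebellar total RNA, where 24.5% of all genes passed, 7 were tested and 5 passed: *Pde3b* (−1.26), *Pde5a* (−1.19), *Pde7a* (−0.81) and *Pde8a* (−0.62) fell and *Pde6d* (0.41) rose. Of 10 adenylyl cyclases 9 were tested there and 1 passed, *Adcy1*, which fell (−0.74). Of 20 effectors 16 were tested and 3 passed: *Prkar1b* (0.57) and *Prkaca* (0.38) rose and *Prkg1*, a protein kinase of cGMP, fell (−1.12). Of 11 guanylyl cyclases 6 were tested and 0 passed by edgeR. The counts of these lists were not tested against the 24.5% of all genes. These calls in cerebellar total RNA share the limits given for the members. In the other 7 comparisons 0 genes of these 4 lists passed by edgeR. In cerebral Gad2 IPs, where *Pde10a* was lower, the medians of the lists were −0.22 (9 other phosphodiesterases tested), −0.14 (8 adenylyl cyclases), −0.07 (8 guanylyl cyclases) and 0.13 (17 effectors), beside −0.01 for all genes, and the summed level of the adenylyl cyclases, *Adcy5* first, was 915 to 1182 CPM in controls and 745 to 972 CPM in HD.

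*Pde10a* and *Pde7b* were the members that fell in cerebellar total RNA. They also had log2 fold changes of −0.44 or lower in all 4 cerebral IP groups, where edgeR called neither. The value −0.44 is the weakest of *Pde10a* itself, so it tests nothing and only describes these genes. For these 2 genes the sequences around annotated transcript starts are shown, which lie inside the genes and not at their outer ends. RefSeq windows of 300 bases, 250 before to 50 after an annotated start, on the GRCm38.p6 build, were found for 9 of the 10 members, 26 windows in all, and none is listed for *Pde9a*. Capitals mark the GC box GGGCGG or its complement CCGCCC. The core TGACG of the cAMP response element, or CGTCA on the other strand, was also searched. *Pde10a* lies on chromosome 17 from 8525372 to 8986648, and its windows shown are chr17:8801495-8801794 and chr17:8849735-8850034, both on the plus strand. *Pde7b* lies on chromosome 10 from 20398004 to 20725078, and its window is chr10:20548279-20548578 on the minus strand. Each is written 5′ to 3′ along the gene.
*Pde10a* first window: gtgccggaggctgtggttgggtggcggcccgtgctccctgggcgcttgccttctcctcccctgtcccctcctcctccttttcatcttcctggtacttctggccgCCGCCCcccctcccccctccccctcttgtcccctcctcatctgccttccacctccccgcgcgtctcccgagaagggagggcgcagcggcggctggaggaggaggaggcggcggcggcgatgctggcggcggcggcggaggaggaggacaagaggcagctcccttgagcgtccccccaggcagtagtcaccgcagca
*Pde10a* second window: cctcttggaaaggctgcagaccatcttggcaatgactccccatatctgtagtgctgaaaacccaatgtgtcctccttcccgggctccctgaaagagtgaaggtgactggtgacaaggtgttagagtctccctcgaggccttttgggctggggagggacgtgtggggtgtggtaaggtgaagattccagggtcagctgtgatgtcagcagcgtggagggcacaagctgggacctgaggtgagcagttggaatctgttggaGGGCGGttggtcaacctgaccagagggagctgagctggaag
*Pde7b* window: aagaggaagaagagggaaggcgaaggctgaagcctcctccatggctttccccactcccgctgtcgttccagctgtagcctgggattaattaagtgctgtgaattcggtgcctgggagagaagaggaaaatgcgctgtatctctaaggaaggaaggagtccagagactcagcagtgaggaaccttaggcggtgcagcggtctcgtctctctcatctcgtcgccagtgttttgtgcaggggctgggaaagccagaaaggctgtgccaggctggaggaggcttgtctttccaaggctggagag
The GC content of the 3 windows was 71.3%, 56.7% and 55.7%, beside a median of 52.7% over 32851 windows. Each *Pde10a* window held 1 GC box and the *Pde7b* window 0, and GGGCGG on either strand was in 6 of the 26 member windows and in 35.7% of all windows. TGACG on either strand was in 0 of these 3 windows, in 4 of the 26 member windows and in 20.8% of all windows. These are matches of letters in a window and say nothing of binding.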

How the data were processed

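Polyadenylated RNA of 67 ribosome IPs and 39 total RNA samples from 45 mice was sequenced by the authors as stranded paired-end libraries. The values used are estimated counts per gene, which the authors made with the nf-core/rnaseq pipeline (STAR and Salmon) on GRCm38.p6 with spike-in and HA sequences added, and deposited as one table of 55401 genes and 92 spike-ins. Of these values, 8.57% were not whole numbers. Genes were typed with GENCODE M21. The members and the lists of other genes were chosen with earlier results of these data known.

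Estimated counts were rounded, and genes typed as protein-coding were kept if their mean count was above 10. Each comparison was fitted by quasi-likelihood in edgeR 4.0.16 (R 4.3.3) with TMM normalization and Benjamini-Hochberg adjustment over all genes kept, at 0.05. HD was compared with control in each IP group and in total RNA, with the Cre line as a covariate where lines were pooled. Levels were fitted over 8 control groups, and differences of HD effects over all 67 IPs. Both fits took libraries as independent, though groups share mice between regions and between IP and total RNA. A group was said to stand apart where its values did not overlap those of the other genotype. SE is the log2 difference over the square root of F. The fits were tested on simulated data.

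All 10 members are named for their levels in control IP groups. In the comparisons with total RNA and of genotypes, some are covered only by a count or a range. The plot of log2 fold changes of HD over control shows all 10. Of each other list, the genes named are those called, or the highest per kb, and of the marker genes called in cerebellar total RNA 2 are given as examples. Alternatives were DESeq2 1.42.0, its size factors in edgeR, no filter, CPM without TMM, single lines, an added line, HD in place of control libraries, blocks of replicate or mouse, each library left out, and, added after the data were seen, length balance as a covariate. Spike-ins, genes that are not protein-coding and tests of gene sets were left out. Library depth ran from 21905238 to 107753596 counts (median 35866734). Chi-square per degree of freedom between replicates was at least 8.42, so that spread between replicate libraries exceeded counting noise.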

Additional observations from a re-analysis of the deposited data

Results flagged for a closer look

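In 12 of 150 groups of 4 to 6 libraries, 1 library lay apart from the others by Dixon's test, where chance gives about 1 in 20 groups, or 7.5. In cerebellar Gad2 IPs these were HD replicate 4 for *Pde10a*, at 24.3 CPM with the others from 35.9 to 40.4, HD replicate 2 for *Pde1a*, at 2.61 CPM with the others from 0.941 to 1.33, control replicate 2 for *Pde1b*, at 44.3 CPM with the others from 55.6 to 60.9, and control replicate 4 for *Pde9a*, at 157 CPM with the others from 96.2 to 113. In cerebellar vGluT2 IPs they were HD replicate 2 for *Pde1b*, at 22.1 CPM with the others from 36.2 to 43.4, and control replicate 5 for *Pde4a*, at 67.1 CPM with the others from 50.5 to 53.4. In cerebral vGluT2 IPs they were HD replicate 1 for *Pde7b*, at 10.8 CPM with the others from 18.6 to 23.2, and control replicate 1 for *Pde7b*, at 15.4 CPM with the others from 28.3 to 32.4. In SST IPs it was control replicate 1 for *Pde4d*, at 13.1 CPM with the others from 25.1 to 28.4. In total RNA they were HD replicate 1 of the cerebellar vGluT2 line for *Pde2a*, at 60.6 CPM with the others from 44.1 to 46.3, control replicate 4 of that line for *Pde4b*, at 82.1 CPM with the others from 72.5 to 73.5, and control replicate 4 of the SST line for *Pde1a*, at 76 CPM with the others from 51.2 to 55.4. Why these libraries lay apart was not tested.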

How the results depend on the processing

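Of the 90 HD differences of members, 38 changed sign under some alternative, 23 of them under one other than leaving out a library, and 0 of these had been called. Of 60 differences in level 13 did, and 3 of these had been called. Of 60 differences of HD effects 15 did. None was called with the opposite sign. The cause was not tested for any change given here. Groups of 3 to 9 libraries limit what can be called, and library depth was not varied.

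For all genes called under HD, DESeq2 in place of edgeR gave 75 for 4 in cerebral Gad2 IPs, 42 for 5 in PV, 2 for 0 in SST, 25 for 1 in cerebral vGluT2, 665 for 285 in cerebellar vGluT2 and 22 for 2 in cerebellar Gad2 IPs, 119 for 21 in cerebral total RNA and 15 for 0 in SST line total RNA. It called 1 member for 0 in cerebral Gad2 and 1 for 0 in PV IPs. With its size factors in edgeR there was 1 gene in cerebellar Gad2 and none (0) in cerebral vGluT2 IPs, and with no filter 1 and 0, and 1 in SST line total RNA.

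HD and control libraries of the same replicate number come from different mice, with consecutive mouse labels in the Gad2 IPs, and no label says that a number marks a litter or batch. In 0 of 9 comparisons did every pair of the same number correlate above 0.1 (−0.30 to 0.52 in cerebral Gad2 IPs, where 3 of 6 correlated best with their own number, and 0.39 to 0.91 with 3 of 3 in the Gad2 line of cerebral total RNA, but 1 of 6 in its other lines). As a block these numbers gave 0 genes in PV, cerebral vGluT2 and cerebellar Gad2 IPs, 9 in those of cerebral Gad2 and 109 in those of cerebellar vGluT2, 2 in SST line total RNA, and 9 for 3544 genes and 0 for 4 members in cerebellar total RNA. Under this block *Pde10a* in cerebellar vGluT2 IPs had 0.0255 for −0.12.

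With length balance as a covariate there were 4 genes in cerebral vGluT2 and 718 in cerebellar vGluT2 IPs, 445 genes and 2 members in cerebral total RNA, and 83 genes and 0 members in cerebellar total RNA, where *Pde1c* had 0.14 for −0.72 and *Pde4d* 0.0553 for −0.40. With the SST line added, cerebral total RNA gave 96 genes and 1 member, and with the Gad2, PV or vGluT2 line alone 0, 0 and 0 genes. Cerebellar total RNA gave 0 genes and 0 members in the Gad2 line alone, where *Pde1c* had 0.12, and 7565 genes in the vGluT2 line alone.

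For levels, HD libraries in place of control gave 4 members for 7 in cerebellar Gad2 IPs, and *Pde4a* in cerebral Gad2 (0.12 for −0.31), *Pde10a* in cerebellar Gad2 (0.0266 for −0.57) and *Pde1a* in cerebellar vGluT2 IPs (0.12 for −0.77) changed sign. The mouse as a block gave 2494 genes in cerebral Gad2 and 4558 in cerebellar Gad2 IPs. For differences of HD effects, only the 4 groups of a contrast gave 0 genes for 7 (cerebellar minus cerebral Gad2), 46 for 87 (cerebellar minus cerebral vGluT2) and 15 for 72 (cerebellar vGluT2 minus Gad2), and the mouse as a block gave 0 and 31 in the first pair of contrasts.

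Leaving out each library in turn gave, for all genes called under HD, 3 to 12 in cerebral Gad2, 0 to 4 in PV, 0 to 1 in SST, 0 to 1 in cerebral vGluT2, 149 to 255 in cerebellar vGluT2 and 0 to 3 in cerebellar Gad2 IPs, 4 to 43 in cerebral total RNA, 0 to 2 in SST line total RNA and 96 to 7408 in cerebellar total RNA, with 0 to 6 members there. *Pde10a* ran from −0.0821 to 0.0736 in cerebellar Gad2 IPs, above 0 without control replicate 3, 4 or 5 or HD replicate 4, and from −0.24 to 0.19 in cerebellar vGluT2 IPs, above 0 without control replicate 4. Members called for level ran from 4 to 8 in cerebellar vGluT2 IPs, and the shares of all genes in those fits are not given here. Genes with different HD effects ran from 5 to 11 (cerebellar minus cerebral Gad2), 69 to 148 (cerebellar minus cerebral vGluT2) and 47 to 191 (cerebellar vGluT2 minus Gad2).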
